A study of Mus musculus with 7 samples.

Results

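The 38 genes described here encode enzymes and carriers that burn fatty acids or sugar, 21 for fatty acid oxidation and 17 for glycolysis. They were chosen by symbol as pathway genes, with earlier results of these data known. All 38 were among the 15155 genes of the donor table and the 26383 genes of the keratinocyte table, and 37 were among the 23737 genes of the host table, where Hk3 was not listed. Single cells from mouse epidermis, the outer layer of the skin, were profiled by 5′ droplet RNA sequencing (10x Genomics) 3 weeks after bone marrow transplantation (BMT), to follow how donor monocytes become Langerhans cells, the resident antigen-presenting cells of the epidermis. Lethally irradiated male CD45.2 C57BL/6 hosts were given marrow from female CD45.1 C57BL/6 donors. Donor cells sorted as CD11b+MHCII+ came as 3 libraries labelled BMT and 1 labelled BMT with T cells (written BMT + T cells). Host CD45neg keratinocytes came as 1 library under each label. Host CD11b+MHCII+ cells came as 1 library, whose title names neither BMT nor T cells. The series text says that hosts also received T cells, both CD4 and CD8, the latter (Matahari) recognizing a male antigen, whereas the sample labels name T cells for the BMT + T cells libraries only, so that the label comparisons are between labels. Cells of several mice were sorted together, and no label ties a library to an animal. P-values therefore measure a spread over libraries and not over animals. For cluster comparisons it is the spread of cluster differences between libraries, pooled over all clusters.

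Fatty acids enter the pathway as acyl-CoA esters made by acyl-CoA synthetases such as Acsl1, pass the mitochondrial membranes on carnitine through Cpt1a, Slc25a20 and Cpt2, and are shortened in repeated rounds by acyl-CoA dehydrogenases, a hydratase, a hydroxyacyl-CoA dehydrogenase and a thiolase. Glycolysis traps glucose through hexokinases and ends in pyruvate, which Ldha turns to lactate for export by Slc16a3. Oxidation of fatty acids is a known feature of quiescent tissue macrophages, and glycolysis of activated myeloid cells and of cells short of oxygen. Transcript levels were measured here, and flux through either pathway was not.

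The donor table held 11899 cells, with totals of 34011138, 64343817, 2982296 and 9405095 UMIs (unique molecular identifiers, which count captured RNA molecules) in the 3 BMT replicates and the BMT + T cells sample, the order kept for all donor values. The 2 keratinocyte libraries held 27817737 and 24959785 UMIs and the host library 5141845. Levels are given as CP10K, the UMIs of a gene per 10000 UMIs of a cell, averaged over the cells of a library within a cluster, and only for clusters of at least 20 cells in that library. At most 7 cell barcodes were shared between any 2 libraries. The authors' clusters were used, and since they were made from the same values, a call (limma, Benjamini-Hochberg adjusted p under 0.05 over all genes tested) describes their annotation. Resident mLC (monocyte-derived Langerhans cells) had the highest Cd207 (6.67 CP10K) and Epcam (22.8 CP10K), migrating mLC the highest Ccr7 (8.91 CP10K) and cycling mLC the highest Mki67 (8.93 CP10K). The cluster named for Mrc1 held 5.65 CP10K of it, about the same as the monocyte cluster Mono (5.64 CP10K). S100a+ monocytes reached 20 cells in BMT replicate 2 alone and held neutrophil RNA (Retnlg 41.7 CP10K and S100a8 262 CP10K).

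Windows from 250 bases before to 50 after the transcription start were taken from RefSeq (build GRCm38.p6) for 36 of the 38 genes, all but Acaa2 and Decr1. Those of the 3 genes per pathway with the largest called difference between resident mLC and Mono are shown, since these genes carry the contrast described next. Capitals mark, on either strand, the core of the hypoxia response element (ACGTG, or GCGTG) and a sequence like that bound by the myeloid factor PU.1 (GAGGAAG). The 3 fatty acid oxidation windows lie at chr1:66863260-66863559, minus strand (the long-chain acyl-CoA dehydrogenase), chr13:34994095-34994394, minus strand (an enoyl-CoA isomerase) and chr3:153944594-153944893, minus strand (the medium-chain acyl-CoA dehydrogenase).
Acadl: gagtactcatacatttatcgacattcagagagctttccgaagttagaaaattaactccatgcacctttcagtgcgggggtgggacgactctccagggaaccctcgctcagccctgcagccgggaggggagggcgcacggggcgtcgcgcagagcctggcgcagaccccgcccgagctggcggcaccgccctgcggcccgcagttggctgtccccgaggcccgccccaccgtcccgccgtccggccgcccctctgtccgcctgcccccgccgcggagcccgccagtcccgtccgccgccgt
Eci2: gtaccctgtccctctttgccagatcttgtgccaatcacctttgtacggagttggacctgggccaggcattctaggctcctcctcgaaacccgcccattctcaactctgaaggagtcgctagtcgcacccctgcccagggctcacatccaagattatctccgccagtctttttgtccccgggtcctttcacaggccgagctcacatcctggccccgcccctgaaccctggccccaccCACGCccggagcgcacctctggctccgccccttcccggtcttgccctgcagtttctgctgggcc
Acadm: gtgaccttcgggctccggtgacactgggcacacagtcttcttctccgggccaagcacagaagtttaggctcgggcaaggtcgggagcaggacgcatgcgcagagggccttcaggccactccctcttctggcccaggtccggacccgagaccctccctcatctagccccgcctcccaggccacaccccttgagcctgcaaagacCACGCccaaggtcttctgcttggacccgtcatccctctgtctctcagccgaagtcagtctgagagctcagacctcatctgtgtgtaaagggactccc
The 3 glycolysis windows lie at chr13:55021336-55021635, minus strand (a hexokinase), chr11:120948817-120949116, plus strand (the lactate exporter MCT4) and chr19:41911621-41911920, plus strand (phosphoglycerate mutase).
Hk3: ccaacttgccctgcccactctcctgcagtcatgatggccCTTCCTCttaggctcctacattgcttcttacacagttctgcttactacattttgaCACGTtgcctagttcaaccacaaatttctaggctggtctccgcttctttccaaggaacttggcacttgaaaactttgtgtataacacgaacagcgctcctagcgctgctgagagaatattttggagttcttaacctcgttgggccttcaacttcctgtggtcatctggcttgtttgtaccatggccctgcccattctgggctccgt
Slc16a3: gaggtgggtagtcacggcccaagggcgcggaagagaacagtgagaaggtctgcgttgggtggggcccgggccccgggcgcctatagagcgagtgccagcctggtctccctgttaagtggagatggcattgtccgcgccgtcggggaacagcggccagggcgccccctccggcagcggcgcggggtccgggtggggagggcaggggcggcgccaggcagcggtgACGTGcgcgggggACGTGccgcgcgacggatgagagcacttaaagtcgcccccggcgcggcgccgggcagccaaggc
Pgam1: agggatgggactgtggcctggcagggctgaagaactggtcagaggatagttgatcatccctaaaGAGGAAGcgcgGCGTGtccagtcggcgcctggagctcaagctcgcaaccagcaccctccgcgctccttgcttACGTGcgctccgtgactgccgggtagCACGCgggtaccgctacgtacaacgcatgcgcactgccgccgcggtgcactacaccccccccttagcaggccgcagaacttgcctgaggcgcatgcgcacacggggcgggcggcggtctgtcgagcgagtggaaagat
ACGTG was present in a window of 12 of the 17 glycolysis genes and 2 of the 19 fatty acid oxidation genes with a window, and in 19.6% of all 32851 windows of this length. GCGTG was present in 9 and 12 genes, and in 32.4% of all windows. GAGGAAG was found for Aldoa, Hk1, Hk3 and Pgam1 only, and in 13.6% of all windows. The direct repeat read by PPAR factors was in no window of the 36 genes and in 13 of all windows. Some genes have several windows, which raises their chance of a match, and a match is a description of letters.

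Summed over each pathway, the means of the donor clusters spanned a narrower range for fatty acid oxidation RNA than for glycolysis RNA. Resident mLC and Mono were nevertheless separated by library in the first sum and not in the second. The summed fatty acid oxidation level was 11.7 ± 0.592 CP10K (SD, n = 4) in resident mLC and 7.71 ± 1.31 CP10K (SD, n = 3) in Hmox1+ monocytes, the highest and the lowest cluster. In the 4 libraries (the 3 BMT replicates, then BMT + T cells) it was 11.4, 11.0, 12.3 and 11.9 in resident mLC and 9.14, 8.51, 9.50 and 10.5 CP10K in Mono, with no overlap. Glycolysis ranged from 47.0 ± 7.47 CP10K (SD, n = 4) in resident mLC to 96.7 ± 29.3 CP10K (SD, n = 3) in Hmox1+ monocytes, and the cycling mLC (49.5 ± 2.31 CP10K (SD, n = 3)) lay within the spread of resident mLC. Mono was at 76.9, 66.0, 52.2 and 38.8 CP10K in the 4 libraries, and its range overlapped that of resident mLC (42.4, 39.7, 56.3 and 49.6 CP10K). Paired by library, the direction was not constant. Resident mLC had the lower sum for BMT replicates 1 and 2. Their sum was the higher one elsewhere, at 56.3 against 52.2 CP10K (BMT replicate 3) and 49.6 against 38.8 CP10K (BMT + T cells). Pkm, Aldoa and Ldha together supplied most of the glycolysis sum (20.8%, 16.3% and 15.7% over all donor cells), and no fatty acid oxidation gene supplied over 11.6%. The glycolysis sum includes Gapdh, Pgk1, Tpi1 and Aldoa, whose values are uncertain, as stated below. Gapdh was at only 0.161 to 0.228 CP10K over the donor clusters.

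**Figure D1:**
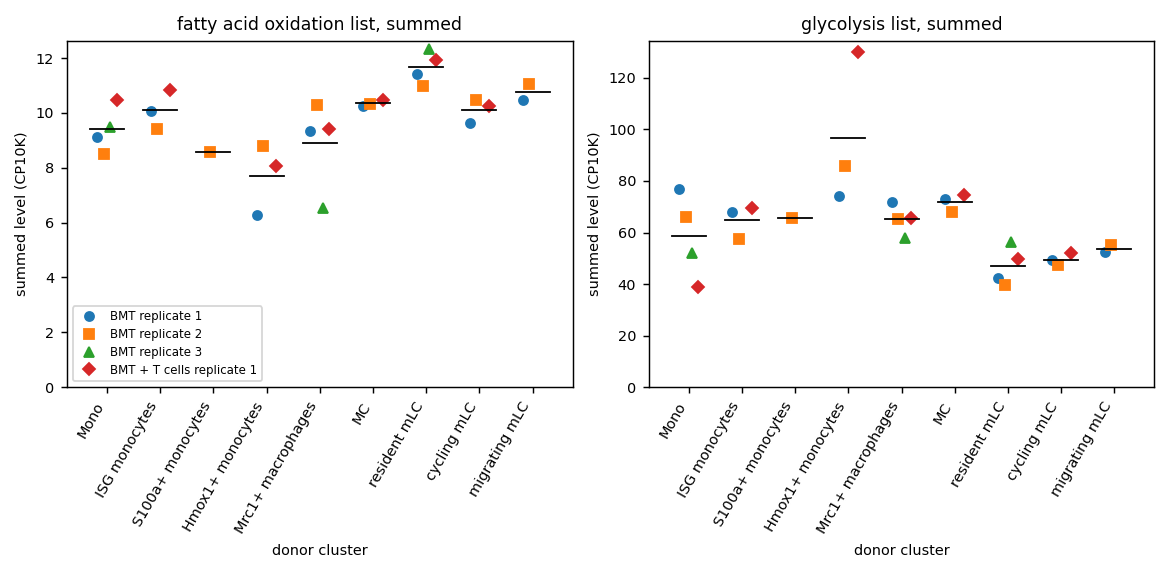
Summed level of the 21 fatty acid oxidation genes (left) and the 17 glycolysis genes (right) in CP10K, by donor cluster; each point is 1 library with at least 20 cells of the cluster and the line is their mean. By mean, resident mLC are highest on the left at 11.7 CP10K and lowest on the right at 47.0 CP10K, and Hmox1+ monocytes are the reverse at 7.71 and 96.7 CP10K. On the right, resident mLC are not below Mono in every library, and the sums include Gapdh, Pgk1, Tpi1 and Aldoa, whose values are uncertain.

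The comparison of resident mLC with Mono asks how the monocyte that enters the epidermis differs from the Langerhans cell it can become. Of 35 members tested (Ppara, Ppargc1a and Slc2a1 were below the minimum of 0.1 CP10K), 5 fatty acid oxidation genes were higher and 2 lower, and 7 glycolysis genes were lower and 0 higher. Among all genes 18.4% of the 7267 genes were higher and 14.3% lower (32.7% in either direction). The median log2 difference was 0.31 over the 19 fatty acid oxidation genes, -0.52 over the 16 glycolysis genes and 0.14 over all genes. Without BMT replicate 1 the count of called members fell from 14 to 9 and without BMT replicate 2 to 8, while 6 members (Acadl, Acadm, Hk1, Hk3, Pgam1 and Pfkfb3) were called in each of 12 refits under other settings. At the study's log2 threshold of 2, Hk3 alone was left.

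The 5 fatty acid oxidation genes that rose encode a pair of dehydrogenases, the isomerases that move double bonds in unsaturated chains, and a carnitine transferase. Acadl, whose enzyme takes the first step on long chains, was at 2.43, 1.70, 1.70 and 1.66 CP10K in resident mLC and 1.00, 0.765, 0.710 and 0.568 CP10K in Mono of the same 4 libraries (log2 difference 1.20 ± 0.18, adjusted p = 8.4e-06). Every resident mLC value lay above every Mono value. Acadm, the medium-chain enzyme, was at 1.42, 1.70, 1.37 and 1.40 against 0.722, 0.923, 0.624 and 0.797 CP10K, again without overlap (log2 difference 0.87 ± 0.19, adjusted p = 0.001). The isomerase gene Eci2 was at 0.402, 0.319, 0.802 and 0.395 against 0.207, 0.0955, 0.337 and 0.152 CP10K (log2 difference 0.96 ± 0.23, adjusted p = 0.0022). BMT replicate 3 was the high library of both groups for Eci2, and the difference had the same sign in 4 of 4 libraries though the ranges overlapped. Its partner Eci1 was at 0.392, 0.202, 0.252 and 0.351 against 0.154, 0.133, 0.194 and 0.133 CP10K (log2 difference 0.63 ± 0.21, adjusted p = 0.023), and Cpt2, the inner-membrane carnitine transferase, was higher in 3 of 4 libraries (log2 difference 0.64 ± 0.21, adjusted p = 0.023).

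Cpt1a, the outer-membrane carnitine transferase and the regulated entry step, was at 0.234, 0.451, 0.163 and 0.311 CP10K in resident mLC and 0.324, 0.508, 0.580 and 0.448 CP10K in Mono (log2 difference -0.57 ± 0.21, adjusted p = 0.044). It was lower in 4 of 4 libraries, the groups overlapped, and the call was lost in 9 of 12 refits. Echs1, the short-chain hydratase, was also lower (log2 difference -0.51 ± 0.19, adjusted p = 0.043). The regulators of the program were close to absent in donor cells. Ppara, a nuclear receptor that turns on these genes in liver, gave 1 UMI in BMT replicate 1 and 0 in the other 3 libraries, and Ppargc1a, a coactivator of mitochondrial genes, gave 2, 2, 0 and 0 UMIs in the 4 libraries. In BMT replicate 3, the library with the fewest UMIs in all, 0 UMIs allow a pooled level of up to 0.0101 CP10K (3 counts, counting error only).

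The glycolysis genes that fell encode hexokinases, an activator of phosphofructokinase, and enzymes and the exporter of the last steps. Hk3, a hexokinase of myeloid cells, was at 1.11, 1.18, 0.666 and 0.297 CP10K in Mono and 0.0376, 0.0555, 0.00798 and 0.0313 CP10K in resident mLC, resting on 4, 58, 2 and 17 UMIs in the latter (log2 difference -2.65 ± 0.25, adjusted p = 1.1e-08). The lowest Mono value, in the BMT + T cells library, lay above every resident mLC value. Hk1 was at 0.558, 0.740, 0.301 and 0.628 against 0.203, 0.297, 0.107 and 0.195 CP10K (log2 difference -1.11 ± 0.18, adjusted p = 2.6e-05), and Hk2 at 1.84, 2.24, 1.40 and 1.75 against 1.41, 1.00, 0.904 and 0.770 CP10K (log2 difference -0.78 ± 0.20, adjusted p = 0.0043).

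Pfkfb3, which makes the activator of phosphofructokinase, was at 0.211, 0.158, 0.391 and 0.251 CP10K in Mono and 0.115, 0.0701, 0.0761 and 0.0226 CP10K in resident mLC (log2 difference -1.03 ± 0.26, adjusted p = 0.0033). Pgam1 was at 5.65, 4.85, 3.48 and 2.68 against 1.29, 1.59, 2.66 and 1.80 CP10K (log2 difference -1.13 ± 0.22, adjusted p = 0.00034), a difference without overlap for both genes. Slc16a3 was at 3.48, 3.81, 2.13 and 0.791 CP10K in Mono and 0.582, 1.20, 0.856 and 1.06 CP10K in resident mLC (log2 difference -1.21 ± 0.27, adjusted p = 0.0013). It was lower in the 3 BMT libraries and higher in the BMT + T cells library, whose Mono value stood far below the others. Pkm, the last kinase of the pathway, followed the same division, at 17.7, 14.2, 11.3 and 9.83 against 8.13, 7.21, 10.7 and 10.1 CP10K (log2 difference -0.53 ± 0.16, adjusted p = 0.011). Gpi1, Aldoa, Gapdh and Ldha had log2 differences of 0.24, 0.27, -0.03 and 0.21 and did not pass the test.

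Further genes of both pathways were counted from pathway lists, also chosen with earlier results of these data known. The counts are to be read against the 18.4% higher and 14.3% lower among all genes (32.7% in either direction). Of 19 other fatty acid oxidation genes tested, 8 were higher and 5 lower in resident mLC than in Mono. The largest difference was that of Fabp5, a fatty acid binding protein, at 0.453 ± 0.316 against 7.59 ± 3.56 CP10K (log2 difference -3.88 ± 0.28, adjusted p = 5e-10). Of 13 other glycolysis and pyruvate genes, 2 were higher and 3 lower. Of 12 hypoxia genes, 5 were lower and 1 higher, the latter being Ndrg1 at 2.92 ± 0.707 against 0.998 ± 0.577 CP10K (log2 difference 1.57 ± 0.26, adjusted p = 4.2e-05).

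**Figure D2:**
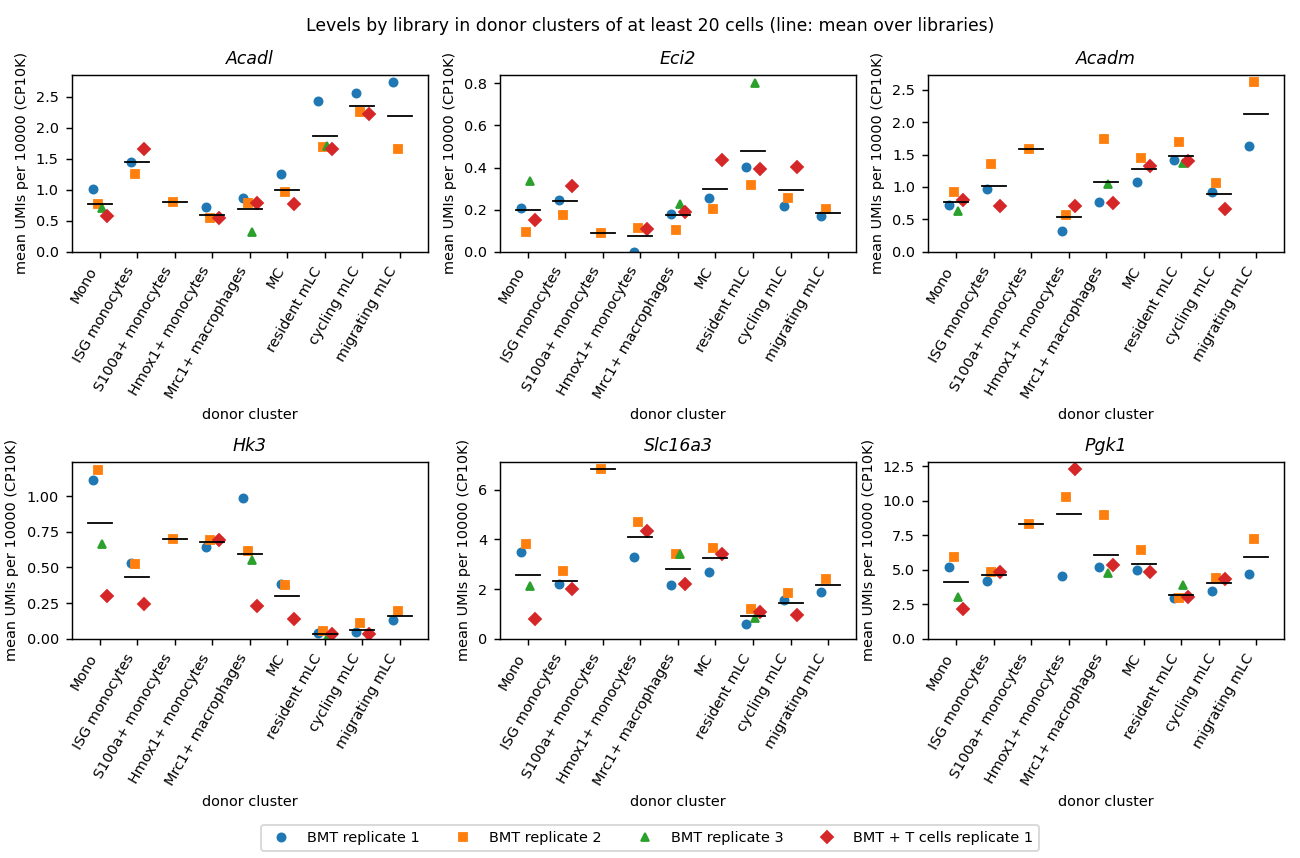
Mean level in CP10K of 6 members by donor cluster; each point is 1 library with at least 20 cells of the cluster and the line is the mean over libraries. Acadl has its highest means in the 3 mLC clusters and Eci2 in resident mLC, the means of Hk3 and Slc16a3 are lowest in resident mLC, and the red points show the low Mono values of the BMT + T cells library for Hk3, Slc16a3 and Pgk1.

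Against Mrc1+ macrophages, resident mLC had 5 fatty acid oxidation genes higher and 1 lower and 8 glycolysis genes lower, where 17.9% of the 7267 genes were higher and 13.6% lower (31.5% in either direction). Since the resident mLC are the same cells in both comparisons, the values are given side by side and their likeness is not evidence. Acadl (1.38), Eci2 (1.03) and Eci1 (0.82) were higher by log2 difference as against Mono, and Etfa, an electron carrier, was called here (0.53). Decr1, the reductase for unsaturated chains, was at 0.120, 0.253, 0.216 and 0.264 CP10K in resident mLC and 0.122, 0.0935, 0.0293 and 0.0838 CP10K in Mrc1+ macrophages (log2 difference 0.78 ± 0.29, adjusted p = 0.039). Decr1 was not higher in BMT replicate 1, and its call was lost in 8 of 12 refits. That of Etfa was lost in 5 of 12. Pgk1, the first ATP-producing kinase of glycolysis, was at 5.20, 8.98, 4.75 and 5.38 CP10K in Mrc1+ macrophages and 2.94, 2.94, 3.88 and 3.05 CP10K in resident mLC (log2 difference -0.87 ± 0.25, adjusted p = 0.0096), and no values overlapped. The count of called members fell from 14 to 7 without BMT replicate 2.

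None of the 35 members was called between Mrc1+ macrophages and Mono, which does not show that their levels were equal. Among all genes 3.67% of the 7267 genes were higher and 4.18% lower (7.86% in either direction). At an unadjusted p under 0.05 limma gave 4 members. Hk1 was called lower when clusters needed 50 cells, without BMT replicate 3, under median centring, under a pseudocount of 1 and with no filter, and Aldoa higher when clusters needed 50 cells, with pooled UMIs and among cells past the study's filter. The Mrc1+ macrophages of BMT replicate 3 were 45 cells with a median of 2214 UMIs, the shallowest unit in the donor fit.

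The intermediate cluster MC, which held Ccl17 (63.8 CP10K) and Epcam (10.2 CP10K), differed from Mono in 4 members, where 3.11% of the 7267 genes were higher and 4.03% lower (7.14% in either direction). Hk3 was at 0.382, 0.378 and 0.138 CP10K in MC of the BMT + T cells sample (last value) and BMT replicates 1 and 2, against 1.11, 1.18 and 0.297 CP10K in Mono (log2 difference -1.17 ± 0.28, adjusted p = 0.0094). Its MC values lay between those of Mono and of resident mLC within each of these libraries. Hk1 was also lower (log2 difference -0.77 ± 0.20, adjusted p = 0.015). The synthetase gene Acsl1 was lower in 3 of 3 libraries (log2 difference -1.22 ± 0.25, adjusted p = 0.0025), and the aldolase gene Aldoa was higher in 3 of 3 (log2 difference 0.80 ± 0.23, adjusted p = 0.039). Aldoc, another aldolase gene, rose with it, at 0.921 ± 0.210 against 0.118 ± 0.0446 CP10K (log2 difference 2.08 ± 0.29, adjusted p = 2.2e-05). No call in MC held under all alternatives: 1 of the 4 was left without BMT replicate 1 or without BMT replicate 2, 2 when the BMT + T cells sample was left out, and 9 members were called from pooled UMIs.

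In ISG monocytes, which carry interferon-stimulated genes, Acadl was the only member called, where 1.54% of the 7267 genes were higher and 0.839% lower (2.38% in either direction). It was at 1.45, 1.25 and 1.65 CP10K in the BMT + T cells sample (last value) and BMT replicates 1 and 2, above every Mono value (log2 difference 0.75 ± 0.20, adjusted p = 0.038). The call was lost when the BMT + T cells sample, BMT replicate 1 or BMT replicate 2 was left out, and 2 members were called without BMT replicate 3.

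Hmox1+ monocytes had the highest mean summed glycolysis level of the donor clusters. It was above that of Mono in BMT replicate 2 (85.8 against 66.0 CP10K) and in the BMT + T cells sample (129.9 against 38.8 CP10K). In BMT replicate 1 it was below that of Mono (74.4 against 76.9 CP10K). Of 16 glycolysis genes 6 were higher than in Mono and 1 lower, and of 19 fatty acid oxidation genes 1 was lower and none higher, where 4.91% of the 7267 genes were higher and 10.6% lower (15.5% in either direction). The medians of the log2 differences were 0.39 for glycolysis, -0.37 for fatty acid oxidation and -0.15 for all genes. Pkm was at 24.3, 19.9 and 33.0 CP10K in the BMT + T cells sample (last value) and BMT replicates 1 and 2, against 17.7, 14.2 and 9.83 CP10K in Mono (log2 difference 0.95 ± 0.17, adjusted p = 0.00049). It was higher in each library, did not overlap, and was the only member called here in each of the 12 refits, though below the study's log2 threshold of 2. Aldoa was higher in 3 of 3 libraries (log2 difference 1.05 ± 0.23, adjusted p = 0.0033). Pgk1 was at 4.52, 10.3 and 12.3 against 5.23, 5.96 and 2.19 CP10K (log2 difference 1.07 ± 0.28, adjusted p = 0.0097). Pgam1 was at 4.68, 7.81 and 10.3 against 5.65, 4.85 and 2.68 CP10K (log2 difference 0.85 ± 0.25, adjusted p = 0.02). Both were higher in the BMT + T cells sample and BMT replicate 2 and lower in BMT replicate 1, which held only 24 of these cells. Eno1, the enolase gene, showed the same division (log2 difference 0.79 ± 0.25, adjusted p = 0.033), with 4.61, 4.90 and 12.6 against 4.87, 3.73 and 2.94 CP10K.

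The exporter gene Slc16a3 was at 3.31, 4.68 and 4.34 CP10K in these 3 libraries of Hmox1+ monocytes and 3.48, 3.81 and 0.791 CP10K in Mono (log2 difference 0.88 ± 0.30, adjusted p = 0.048). It was lower in BMT replicate 1, the widest gap was in the BMT + T cells sample with its low Mono value, and the call was lost in 8 of 12 refits. Pfkp, the platelet-type phosphofructokinase, was at 1.11, 1.96 and 1.17 against 3.77, 3.81 and 1.43 CP10K and lower in 3 of 3 (log2 difference -0.80 ± 0.24, adjusted p = 0.027). Eci1 was the fatty acid oxidation gene that fell (log2 difference -0.72 ± 0.23, adjusted p = 0.037). Of 12 hypoxia genes 3 were higher and none lower (all genes: 4.91% and 10.6%), with Vegfa, the vascular growth factor, at 2.77 ± 1.20 against 0.138 ± 0.106 CP10K (log2 difference 3.54 ± 0.39, adjusted p = 8.3e-07). Slc27a1, a fatty acid transporter, rose to 1.61 ± 0.188 from 0.166 ± 0.0337 CP10K (log2 difference 2.73 ± 0.29, adjusted p = 4.2e-07). The cluster also held Arg1 (22.1 CP10K) and S100a8 (17.1 CP10K), whose part in the result was not tested. Without BMT replicate 2 the count fell from 8 to 1, leaving out the BMT + T cells sample gave 5, and pooled UMIs gave 14.

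S100a+ monocytes, with 594 cells of a single library, had no member called, where 1.05% of the 7267 genes were higher and 0.812% lower (1.86% in either direction). At an unadjusted p under 0.05 limma gave 1 member, Slc16a3 (fitted log2 difference 1.26 ± 0.45, adjusted p = 0.21). Within the library itself it was at 6.81 CP10K against 3.81 CP10K in Mono, a log2 difference of 0.82. The fitted value also draws on Mono of the other libraries. The test borrows the spread of the other clusters for this sample.

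**Figure D3:**
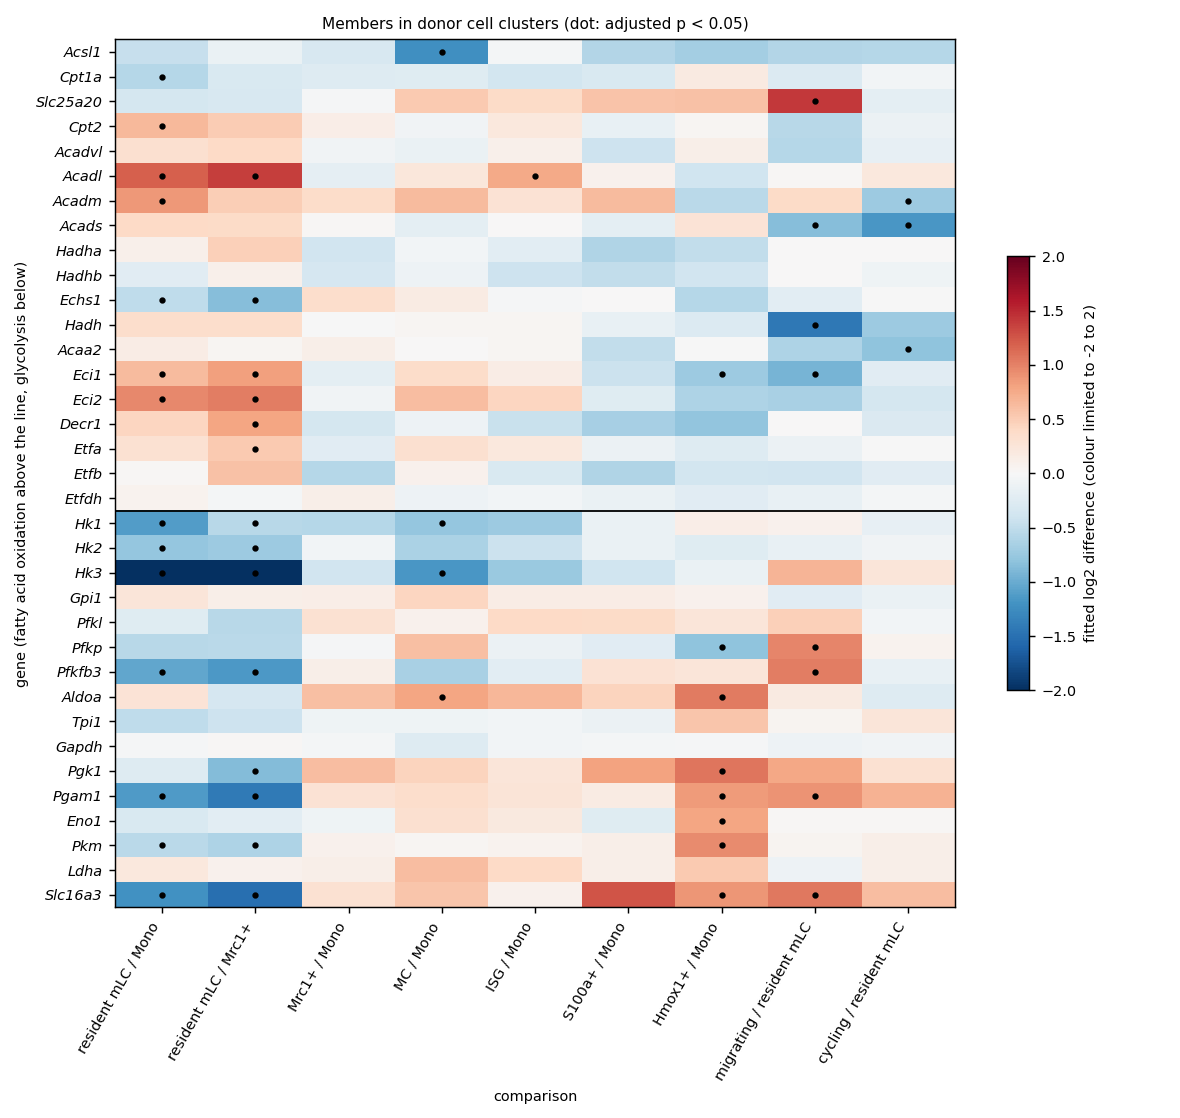
Fitted log2 difference of the 35 tested members (rows) in 9 comparisons of donor clusters (columns), red for higher and blue for lower in the first-named cluster, with colors limited to -2 and 2; a dot marks a limma adjusted p under 0.05. In resident mLC dots on red fields are confined to fatty acid oxidation rows and every glycolysis dot is on blue, whereas Hmox1+ monocytes and migrating mLC have glycolysis dots on red.

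Migrating mLC hold Ccr7, and the authors describe them as seemingly poised to leave the epidermis. They reached 20 cells in BMT replicates 1 and 2 only, and the values shown are those of these libraries. The fitted differences from resident mLC also draw on the resident mLC of the other donor libraries. Glycolysis had 4 genes higher and none lower, and fatty acid oxidation 1 higher and 3 lower, where 6.81% of the 7267 genes were higher and 13.3% lower (20.1% in either direction). Slc16a3 was at 1.88 and 2.41 CP10K against 0.582 and 1.20 CP10K (log2 difference 1.05 ± 0.34, adjusted p = 0.033), Pgam1 at 3.09 and 3.62 against 1.29 and 1.59 CP10K (log2 difference 0.90 ± 0.28, adjusted p = 0.027), and Pfkp at 3.50 and 4.60 against 2.01 and 2.31 CP10K (log2 difference 0.97 ± 0.28, adjusted p = 0.015). Pfkfb3 was higher too (log2 difference 1.03 ± 0.33, adjusted p = 0.029). All 4 were higher in both libraries without overlap.

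The carnitine carrier gene Slc25a20 rose to 0.450 and 0.610 CP10K from 0.0986 and 0.195 CP10K (log2 difference 1.41 ± 0.30, adjusted p = 0.0017). Hadh, the short-chain hydroxyacyl-CoA dehydrogenase, was at 0.0476 and 0.199 against 0.538 and 0.439 CP10K (log2 difference -1.43 ± 0.40, adjusted p = 0.013), and Eci1 (log2 difference -0.93 ± 0.27, adjusted p = 0.015) and Acads, the short-chain acyl-CoA dehydrogenase (log2 difference -0.86 ± 0.30, adjusted p = 0.046), were lower as well. Acadl, in contrast, had a log2 difference of 0.02 and Acadm of 0.39, neither called. Fabp5 was at 20.8 ± 5.27 against 0.648 ± 0.328 CP10K (log2 difference 4.86 ± 0.36, adjusted p = 3.2e-09). Without either BMT replicate 1 or 2 no member was called, with 1 library of migrating mLC left, and a pseudocount of 1 gave 4 called members.

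Cycling mLC had 3 fatty acid oxidation genes called against resident mLC, all lower, and no glycolysis gene called. Among all genes 7.20% of the 7267 genes were higher and 3.52% lower (10.7% in either direction). Acads was at 0.177, 0.165 and 0.165 CP10K in the BMT + T cells sample (last value) and BMT replicates 1 and 2, below every resident mLC value (0.478, 0.369, 0.709 and 0.538 CP10K over 4 libraries; log2 difference -1.16 ± 0.26, adjusted p = 0.0041). Acadm was at 0.924, 1.07 and 0.667 CP10K (log2 difference -0.72 ± 0.21, adjusted p = 0.028), and Acaa2, the thiolase, was lower in 3 of 3 libraries (log2 difference -0.81 ± 0.23, adjusted p = 0.023). Acadl, at 2.57, 2.26 and 2.22 CP10K, did not pass the test against resident mLC (log2 difference 0.21 ± 0.20, adjusted p = 0.56). No member was called without BMT replicate 1 and 1 was called without BMT replicate 2.

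Over all donor clusters 11 of 19 fatty acid oxidation genes and 12 of 16 glycolysis genes varied in a moderated F test (limma), against 53.8% of all genes. The count of 23 members was 14 without BMT replicate 1 and 11 without BMT replicate 2. The genes that did not pass include Hadha and Hadhb, the 2 subunits of the trifunctional protein, with levels of 0.416 to 0.863 and 0.630 to 0.896 CP10K over the clusters (F test adjusted p = 0.069 and 0.58). Their genes lie head to head on chromosome 5, on opposite strands, and their start windows share 228 bases. Etfdh, which passes electrons on to the respiratory chain, ranged from 0.113 to 0.164 CP10K. The other members that did not pass were Acadvl (the very-long-chain dehydrogenase), Acaa2, Cpt2, Etfb (an electron carrier), Hadh, Gpi1 (the glucose phosphate isomerase), Pfkl, Gapdh and Ldha, which does not show that their levels were equal. Slc2a1, the glucose transporter, was at 0.0564 CP10K or less in each cluster. Gapdh was listed at 0.161 to 0.228 CP10K, low for a gene every cell uses. Gapdh, Pgk1, Tpi1 and Aldoa are known to have near-identical copies, and their values are given as uncertain. The same holds for every call of these genes and for the glycolysis sums that include them. Whether reads were split among copies was not tested.

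The donor label comparison, BMT + T cells against BMT, was made over Mono, Mrc1+ macrophages and resident mLC with equal weights and 1 library against 3. No member was called, nor any of the 7345 genes (0% called). At an unadjusted p under 0.05 limma gave 2 members, both lower. Hk3 had a log2 difference of -0.90 ± 0.32 (adjusted p = 0.95; 0.001 to 1 over the alternatives) and of -1.13, -1.02 and -0.55 against BMT replicates 1, 2 and 3 singly. Pfkl, a phosphofructokinase gene, had -0.78 ± 0.33. The median over the 16 glycolysis genes was -0.27, over the 19 fatty acid oxidation genes 0.18 and over all genes 0.05. Hk3, Pfkl and Pfkp were called lower without BMT replicate 3, the library of 226 cells, in a fit with 1 residual degree of freedom that called 7.45% of all genes.

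Keratinocytes were tested within 2 libraries, 1 under each label, for 31 members. Ppara, Ppargc1a, Slc2a1, Hk3, Pfkfb3, Gapdh and Slc16a3 were below the minimum, and Hk3 gave 0 UMIs in both libraries (2836 and 2590 cells), which allows a pooled level of up to 0.00108 and 0.00120 CP10K (3 counts). Differentiated cells, with Krt10 at 147 CP10K, differed from basal cells, with Krt14 at 385 CP10K, in 8 fatty acid oxidation genes (5 higher, 3 lower) and 7 glycolysis genes (1 higher, 6 lower), where 10.5% of the 7650 genes were higher and 19.8% lower (30.3% in either direction). The largest rises were at the entry of the pathway. Acsl1 was at 1.30 and 1.49 CP10K in differentiated and 0.380 and 0.399 CP10K in basal cells of the BMT and the BMT + T cells library (log2 difference 1.61 ± 0.12, adjusted p = 2.9e-09), and Cpt1a at 0.820 and 0.769 against 0.438 and 0.425 CP10K (log2 difference 0.75 ± 0.13, adjusted p = 0.00016). Neither gene's values overlapped. Acaa2 (0.49), Acadm (0.34) and Hadh (0.29) were higher by log2 difference. Decr1 was at 0.135 and 0.106 against 0.346 and 0.295 CP10K (log2 difference -0.93 ± 0.13, adjusted p = 1.3e-05), and Eci2 (-0.56) and Acads (-0.52) were lower too. Among glycolysis genes Tpi1, Pgk1, Pfkp, Pfkl, Ldha and Gpi1 were lower, by -0.49 (Pfkl) to -0.24 (Gpi1), and Hk2 was higher, at 0.181 and 0.252 against 0.0975 and 0.128 CP10K (log2 difference 0.57 ± 0.18, adjusted p = 0.019).

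Hair follicle keratinocytes, with Krt79 at 25.1 CP10K, had 6 fatty acid oxidation genes higher and 1 lower and 6 glycolysis genes lower and 1 higher than basal cells, where 15.5% of the 7650 genes were higher and 10.0% lower (25.5% in either direction). The medians were 0.16 and -0.21, and 0.05 over all genes. Hadh was at 3.05 and 2.87 against 2.03 and 1.85 CP10K (log2 difference 0.59 ± 0.08, adjusted p = 6e-06), and Decr1, lower in differentiated cells, was higher here at 0.611 and 0.447 CP10K (log2 difference 0.57 ± 0.13, adjusted p = 0.0024). Cpt1a was lower, at 0.235 and 0.258 CP10K (log2 difference -0.62 ± 0.13, adjusted p = 0.0012). Pkm was at 6.23 and 5.62 against 9.83 and 9.01 CP10K (log2 difference -0.66 ± 0.05, adjusted p = 7.7e-10) and Pfkp at 0.820 and 0.770 against 1.69 and 1.49 CP10K (log2 difference -0.91 ± 0.09, adjusted p = 6.8e-08). In the list of further glycolysis genes the largest difference was that of Ldhb, the other lactate dehydrogenase subunit, at 2.44 ± 0.395 against 0.433 ± 0.0389 CP10K (SD, n = 2; log2 difference 2.24 ± 0.12, adjusted p = 3.3e-11), while Ldha was lower (-0.28). Without the replicate block 9 of the 14 members were called, and with no filter 7.

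The clusters labelled KC_Four and KC_Five held the most Mki67 (6.63 and 5.34 CP10K) and Cdc20 (4.45 and 8.76 CP10K), genes of dividing cells. KC_Four differed from basal cells in 9 fatty acid oxidation genes (8 lower) and 9 glycolysis genes (4 higher, 5 lower), where 16.3% of the 7650 genes were higher and 24.1% lower (40.3% in either direction). KC_Five differed in 5 fatty acid oxidation genes, all lower, and 8 glycolysis genes (5 higher, 3 lower), where 17.9% of the 7650 genes were higher and 19.7% lower (37.6% in either direction). Neighbouring steps of glycolysis moved in opposite directions in both clusters. Aldoa was at 3.07 and 2.45 CP10K in KC_Four and 3.09 and 2.24 CP10K in KC_Five against 5.69 and 5.32 CP10K in basal cells (-0.98 and -1.04 by log2 difference), whereas Tpi1, the isomerase that follows it, was at 5.57 and 5.50 and 6.52 and 6.18 against 3.92 and 3.39 CP10K (0.59 and 0.78). The ranges of neither gene overlapped, and the values of both are uncertain as stated above. Pgk1, Pgam1 and Pkm were called higher with Tpi1, and Pfkp and Gpi1 lower with Aldoa, in both clusters. The basal cells are shared by the 4 keratinocyte comparisons. Across all 5 clusters 16 of 19 fatty acid oxidation genes and 10 of 12 glycolysis genes varied (F test, against 74.5% of all genes).

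**Figure D4:**
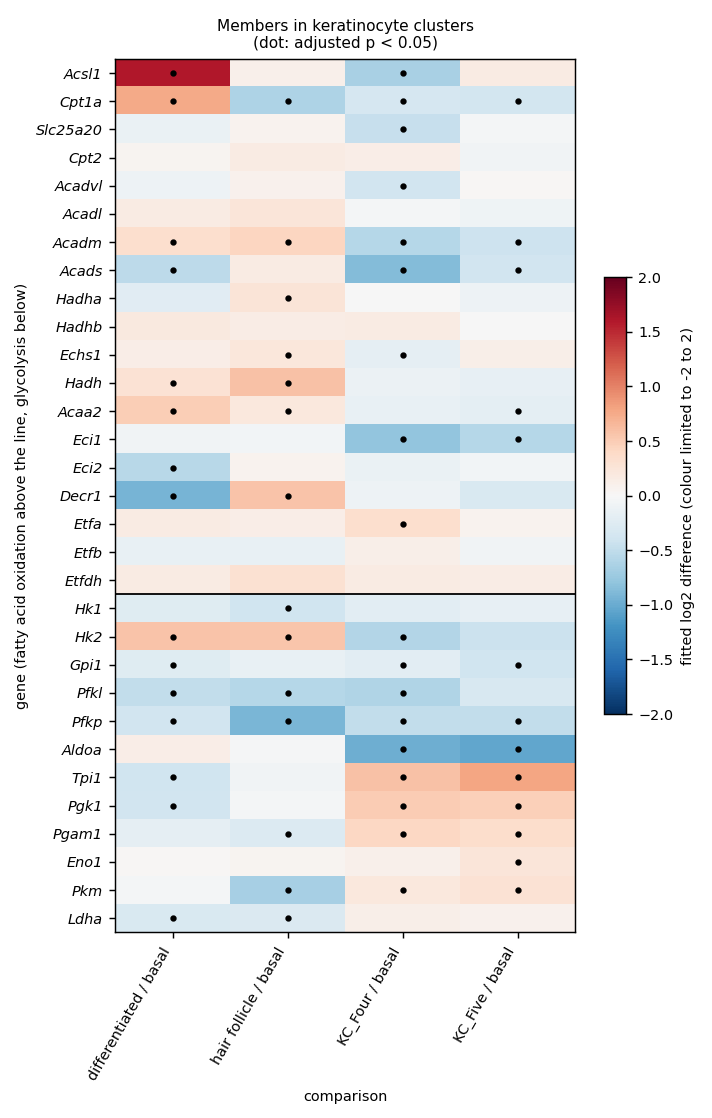
Fitted log2 difference of the 31 tested members (rows) in 4 keratinocyte clusters against basal cells (columns), red for higher and blue for lower, with colors limited to -2 and 2; a dot marks a limma adjusted p under 0.05. Acsl1 in differentiated cells (1.61) is the largest rise and Aldoa in KC_Five (-1.04) the largest fall.

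Between the keratinocyte libraries labelled BMT + T cells and BMT, with 1 library each and thus no test, none of the 31 members differed by more than 0.5 (log2) over all cells, where 0.749% of 7615 genes were above and 0.407% below that size (1.16% in either direction). Of 19 fatty acid oxidation genes 16 were lower under BMT + T cells (median -0.11), and of 12 glycolysis genes 8 (median -0.09), beside a median of 0.00 over all genes. Ldha had the largest difference, 8.81 CP10K under BMT and 7.32 CP10K under BMT + T cells (-0.26). Hk2 was the highest of the glycolysis genes, at 0.117 and 0.146 CP10K (0.18). Within clusters Slc25a20 in KC_Four was the only member past 0.5, at 0.247 CP10K from 89 UMIs under BMT and 0.103 CP10K from 27 UMIs under BMT + T cells (-0.78).

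The host library of 781 cells had no replicate, and its 6 clusters of at least 20 cells are named by number. Clusters 1, 2, 3 and 4 held Cd207 (1.56, 14.0, 2.83 and 6.84 CP10K), cluster 4 also Ccl22 (12.7 CP10K), cluster 5 keratin RNA (Krt14 205 CP10K) and cluster 6 T cell RNA (Cd3g 75.4 CP10K). Of 33 members past the filter 31 differed by more than 1 (log2) between the highest and the lowest cluster, near the 92.4% of all 10952 genes that did. The summed glycolysis level was 8.31 and 12.4 CP10K in clusters 1 and 3, whose median mitochondrial share was 15.6% and 16.9%, and 30.5, 19.98, 31.9 and 24.1 CP10K in clusters 2, 4, 5 and 6 at 6.09%, 12.9%, 2.91% and 4.79%. The part of the mitochondrial share in these levels was not tested.

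Acadl was at 0.330 CP10K (43 UMIs; 95% Poisson interval of the pooled level 0.274 to 0.510) in host cluster 1 and 1.52 CP10K (82 UMIs; 95% Poisson interval of the pooled level 1.09 to 1.70) in cluster 4. Its level in cluster 2 was 1.68 CP10K and in cluster 3 0.330 CP10K. Cpt1a ran the other way, at 0.988 CP10K (121 UMIs; 95% Poisson interval of the pooled level 0.885 to 1.27) in cluster 1 against 0.398 CP10K (21 UMIs; 95% Poisson interval of the pooled level 0.218 to 0.537) in cluster 4. Aldoa was at 0.324 CP10K (43 UMIs; 95% Poisson interval of the pooled level 0.274 to 0.510) in cluster 1 and 4.56 CP10K (327 UMIs; 95% Poisson interval of the pooled level 3.71 to 4.62) in cluster 2. Slc16a3 was at 0.165 CP10K or less in each of the 6 clusters. Pfkp was at 3.10, 1.83, 3.24 and 3.73 CP10K in clusters 1, 2, 3 and 4. Cluster 2 had a median of only 1764 UMIs per cell and held Krt10 at 14.5 CP10K. Gapdh was at 0.570 to 10.4 CP10K over the host clusters, far above its donor and keratinocyte levels, so levels are not compared across the 3 tables.

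**Figure D5:**
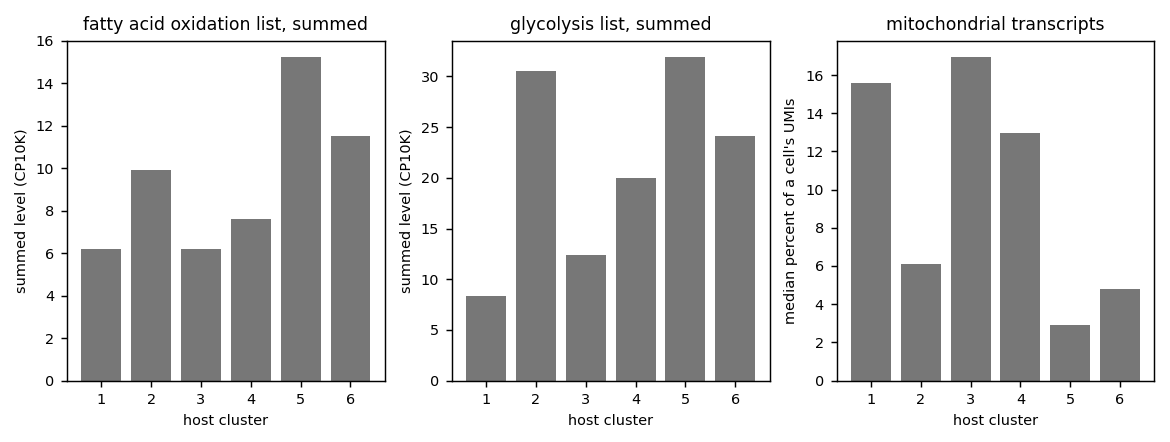
Summed fatty acid oxidation level (left) and glycolysis level (middle) in CP10K, and median percent of mitochondrial UMIs per cell (right), in the 6 host clusters of at least 20 cells from 1 library, with no error bars since there is no replicate. Clusters 1 and 3 have the lowest glycolysis sums, 8.31 and 12.4 CP10K, and the highest mitochondrial shares.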

How the data were processed

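The deposited tables hold natural log values, which the authors made with Seurat as ln(1 + UMIs per 10000 UMIs of the cell), after counting with kallisto and bustools on GRCm38 (submitters' processing notes; versions and annotation are not given in the sources used here). Per the methods, the authors removed cells with under 500 genes or over 20% mitochondrial reads and likely doublets. The deposited host cells nevertheless include cluster 7, with a median mitochondrial share of 23.9%. All deposited cells were used in the main fits, and the study's filter was applied only as an alternative. The authors also deposited the mitochondrial percent and the cluster names. Whole UMIs were recovered for 100% of values (tolerance 0.001).

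Means per library and cluster (at least 20 cells) were compared in R 4.3.3 with limma 3.58.1 on log2(CP10K + 0.1), with library as a block, in genes reaching 0.1 CP10K, with Benjamini-Hochberg adjustment over all genes tested. Log2 differences, given ± SE, understate those of low genes. Blocks pair clusters of the same library. Where a cluster is missing from some libraries, the fitted difference also draws on those libraries and can depart from the mean of the paired differences. The code was tested on simulated data, whose spread was a fixed setting and not an estimate from these libraries. For resident mLC against Mono it recovered 29% of genes changed by a log2 of 1 and 92% of those changed by 2. A member that was not called may therefore still differ. Intervals cover counting error only. Alternatives were pseudocounts of 0.01 and 1, no filter, pooled UMIs, median centring, no block, at least 50 cells, the study's cell filter and its log2 threshold of 2, and leaving out each library. All 38 members were named, with values in every library for those that ranged widest. One result is not reported here. Members and lists were chosen with earlier results of these data known.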

Additional observations from a re-analysis of the deposited data

Results flagged for a closer look

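In 3 called differences the BMT + T cells library and the BMT libraries had opposite signs; the difference between labels was not tested, since 1 library carries the label. For Pkm in resident mLC against Mono the log2 difference was 0.032 in the BMT + T cells library and -1.11, -0.97 and -0.08 in BMT replicates 1, 2 and 3. For Slc16a3 in the same comparison it was 0.38, against -2.39, -1.59 and -1.23. For Eci1 in Hmox1+ monocytes against Mono it was 0.011, against -0.80 and -1.03 in BMT replicates 1 and 2.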

How the results depend on the processing

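Of 984 tested values of the 112 single calls under other settings, 775 kept direction and call and 209 lost the call, and 120 with 1 keratinocyte library left out have no test and kept the direction only. None reversed, and the causes were not tested. Counts of called members moved by over 1.5 times as follows. At the study's log2 threshold of 2, resident mLC had 1 against Mono and 1 against Mrc1+ macrophages, and MC, ISG monocytes, Hmox1+ monocytes, migrating mLC, cycling mLC and the 4 keratinocyte comparisons had 0. Mrc1+ macrophages (0) had 1 with a pseudocount of 1, no filter, pooled UMIs, median centring or the study's filter, and 2 with at least 50 cells. Pooled UMIs gave 9 in MC (4), 3 in ISG monocytes (1) and 14 in Hmox1+ monocytes (8). ISG monocytes had 0 with a pseudocount of 0.01 or median centring, and 2 with a pseudocount of 1 or at least 50 cells. With no filter Hmox1+ monocytes had 4, migrating mLC (8) 5, hair follicle cells (14) 7 and KC_Four (18) 11. Migrating mLC had 4 with a pseudocount of 1, cycling mLC (3) 0 with at least 50 cells, and the host clusters (31) 15 with a pseudocount of 1. Without the replicate block MC had 0, ISG monocytes 0, Hmox1+ monocytes 4 and hair follicle cells 9. Resident mLC against Mono then had 11 in place of 14, which is within 1.5 times.

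Leaving out 1 library gave 8 to 14 for resident mLC against Mono, 7 to 13 against Mrc1+ macrophages, 0 to 1 for Mrc1+ macrophages, 1 to 6 for MC, 0 to 2 for ISG monocytes, 1 to 7 for Hmox1+ monocytes, 0 to 9 for migrating mLC, 0 to 4 for cycling mLC, 0 to 3 between donor labels and 11 to 23 over all donor clusters. BMT replicate 3 had the fewest cells (226) and BMT replicate 2 the fewest UMIs per cell (median 7021.5).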
